A study of Mus musculus with 8 samples.

Results

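Gap junction connexins and marker genes of cochlear supporting cells were examined in mouse organ of Corti dissected at postnatal day 16. The 8 genes were chosen by symbol: the connexins Gjb2, Gjb6 and Gja1, and Fgfr3, Prox1, Slc1a3, Cdkn1b and Ngfr, which mark pillar cells, Deiters cells or cells at the inner border. They are 8 of the 18193 genes with a probe set of their own on the array, and 24 of its 45101 probe sets belong to them. All 8 lay above the filter on dim probe sets through the probe set of highest mean signal, and were tested.

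Each of 8 arrays held RNA from the basal or the apical part of both cochleae of 1 mouse, in 4 groups of 2 samples. Dicer1 conditional knockouts (cKO, Atoh1-Cre;Dicer1(flox/flox)) were compared with littermate controls (Atoh1-Cre;Dicer1(flox/wt)) in the base and in the apex. Both genotypes therefore carried the Cre transgene, Tg(Atoh1-cre)1Bfri, and at least 1 floxed Dicer1 allele, Dicer1tm1Bdh, and differed in the second allele. Atoh1 drives this Cre in developing hair cells, so that the genes described here mark cells that are mainly neighbours of the targeted cells. Samples of the same genotype and number were taken as the base and apex of the same mouse, which gives 4 presumed mice.

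Supporting cells surround and hold the hair cells of the organ of Corti. Connexins join in rings of subunits to form channels between them, through which potassium ions and small metabolites pass from cell to cell. The same connexins also couple the fibrocytes of the lateral wall and cells of the stria vascularis. Loss of GJB2 is a frequent cause of inherited deafness in humans.

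Values are MAS5 signals, an intensity per probe set, given as log2, with 1 unit for a doubling. Median signals ran from 67.3 to 100 per array, and replicates of a group correlated across genes at r = 0.9448 (control base) to 0.9625 (cKO base). The 2 control basal samples differed in tissue beside the sensory epithelium. The 10 stria vascularis markers with a probe set summed to a signal of 20199 in control base replicate 1. They summed to 55068 in control base replicate 2 and to 50631 to 56439 in the cKO base. The 8 neuron markers summed to 63037 in control base replicate 1, the highest of all arrays. In control base replicate 2 they summed to 20561, the lowest, against 32280 to 55314 in the other arrays. Control mouse 1 was the only one with a high Xist signal (12.39 in base and 12.54 in apex, at most 8.23 elsewhere) (Xist is transcribed from the inactive X chromosome of female cells). The region labels were borne out by Tectb, which encodes beta-tectorin of the tectorial membrane, at 5.71 to 8.71 in the 4 basal samples and 12.52 to 13.48 in the 4 apical ones. The genotypes overlapped in Dicer1 signal: its brighter probe set had log2 signals of 9.30 and 9.06 in cKO base and 9.36 and 9.04 in control base, and 9.41 and 9.17 in cKO apex against 9.57 and 9.19 in control apex. Whether its 2 probe sets lie in the floxed part was not analysed here. The share of the sampled cells in which Cre acts was not measured, so that these probe sets do not check the labels. The 10 hair cell markers with a probe set all lay above the filter, and no marker had a signal of 0 on any array.

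**Figure D1:**
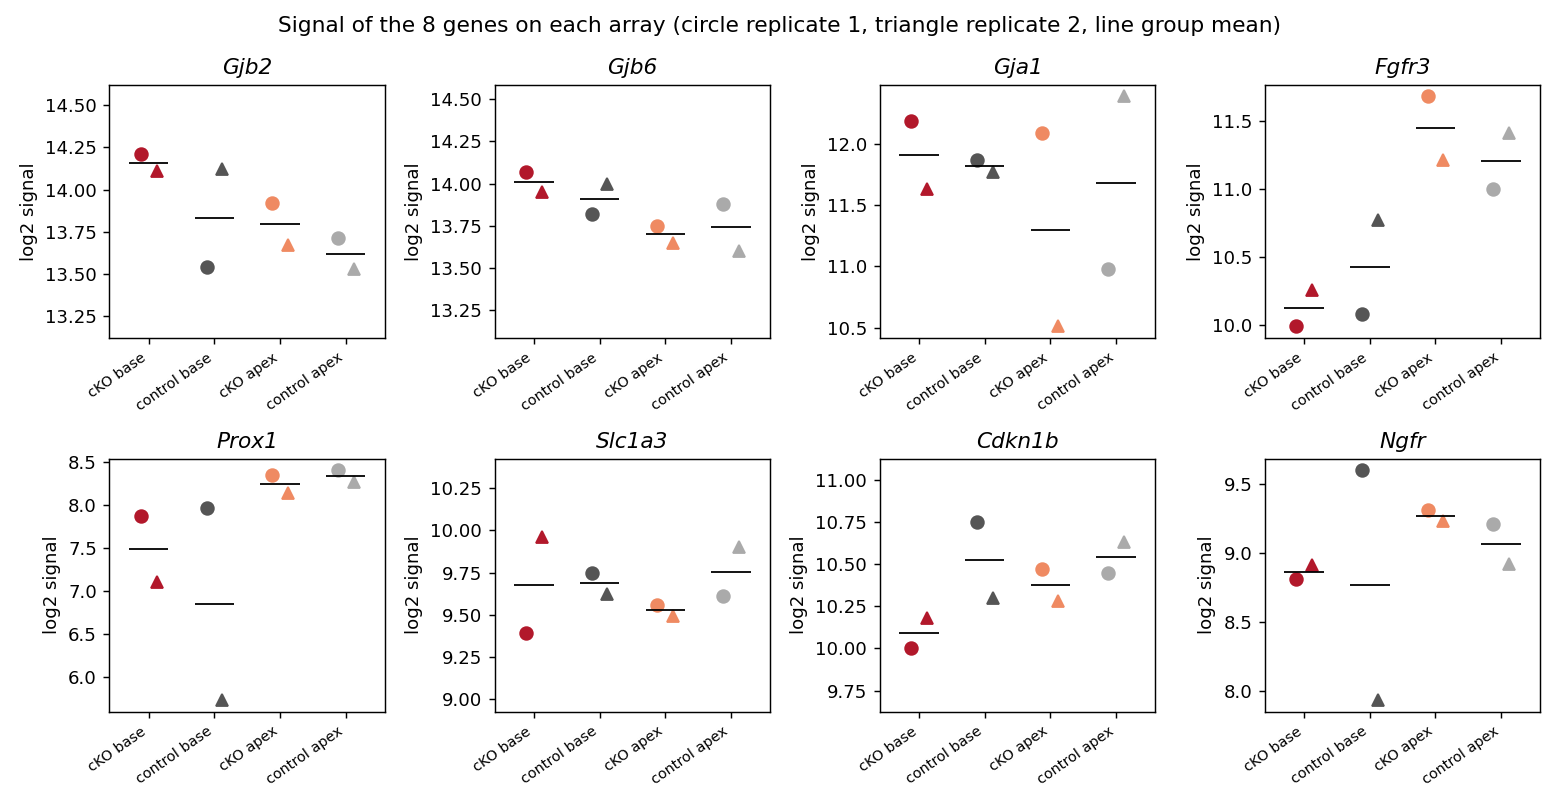
Log2 signal of each of the 8 genes on every array, by group, with circles for replicate 1, triangles for replicate 2 and a line at the group mean. Fgfr3 and Prox1 lie lower in all 4 basal samples than in all 4 apical ones, and Gja1 varies most within the 2 apical groups.

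Gjb2 and Gjb6 (Cx26 and Cx30), which assemble together in most supporting cell channels, are neighbours on chromosome 14 with 0 annotated genes between them. Their promoters are shown because the signals of this pair moved together over the arrays, and that of Fgfr3 because it came closest to the threshold between regions. Each is the 250 bases before an annotated transcription start from RefSeq (GRCm38.p6), 5′ to 3′ on the gene's strand. Capitals mark GC boxes (GGGCGG) and TTAAAA, an element like a TATA box, each searched on both strands.
Gjb2, chr14:57104703-57104952, minus strand: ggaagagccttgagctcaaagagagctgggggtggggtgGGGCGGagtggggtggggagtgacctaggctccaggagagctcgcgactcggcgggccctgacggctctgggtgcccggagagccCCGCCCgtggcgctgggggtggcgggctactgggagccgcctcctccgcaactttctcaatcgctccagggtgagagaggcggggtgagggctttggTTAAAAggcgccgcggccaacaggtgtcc
Gjb6, chr14:57133612-57133861, minus strand: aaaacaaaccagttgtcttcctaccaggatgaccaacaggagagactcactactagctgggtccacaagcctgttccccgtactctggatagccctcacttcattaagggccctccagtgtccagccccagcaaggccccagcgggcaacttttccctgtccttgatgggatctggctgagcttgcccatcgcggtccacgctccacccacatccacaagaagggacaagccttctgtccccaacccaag
Fgfr3, chr5:33721474-33721723, plus strand: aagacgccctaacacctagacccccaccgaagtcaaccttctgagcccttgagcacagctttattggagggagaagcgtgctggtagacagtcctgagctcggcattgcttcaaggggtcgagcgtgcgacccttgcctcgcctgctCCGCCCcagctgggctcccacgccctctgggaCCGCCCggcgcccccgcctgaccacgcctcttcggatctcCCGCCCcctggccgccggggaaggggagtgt

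The Gjb2 window held 2 GC boxes, 1 TTAAAA close to the start and 18 CpG dinucleotides. The Gjb6 window held neither motif and 5 CpG, near the median of 6 over all 32851 windows of this length. The Fgfr3 window shown held 3 GC boxes and 19 CpG. A second annotated Fgfr3 window, not shown, held 2 GC boxes and 24 CpG. Over all windows, 32.7% held a GC box and 17.7% a TTAAAA. All 8 genes matched the promoter table, with 10 windows, of which 8 held a GC box and 5 a TTAAAA. A match of letters describes the window and not a bound site.

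Gjb2 had log2 signals of 14.21 and 14.11 in cKO base and 13.54 and 14.12 in control base. In the apex it had 13.92 and 13.67 in cKO samples, and 13.71 and 13.53 in controls. Control base replicate 1 lay at the level of the apical samples, while the other 3 basal samples lay above all 4 apical ones. Base minus apex over both genotypes was 0.29 ± 0.14 (log2, SE), a 1.22-fold difference with a 95% interval of 0.978 to 1.52-fold, and did not pass limma's test over all genes (adjusted p = 0.339).

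Gjb6 followed the same order within mice. Its log2 signals were 14.07 and 13.95 in cKO base and 13.82 and 14.00 in control base, against 13.75 and 13.65 in cKO apex and 13.88 and 13.60 in control apex. The basal cKO samples lay above the apical ones for both connexins, as they did for 23.2% of genes, and the controls overlapped. Base minus apex over both genotypes was 0.24 ± 0.09 (adjusted p = 0.251, limma). Base was above apex in 3 of 4 presumed mice for each gene, by 0.29 to 0.58 for Gjb2 and 0.30 to 0.40 for Gjb6. In control mouse 1 it was below, by -0.16 for Gjb2 and -0.06 for Gjb6.

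Over the 8 arrays the log2 signals of Gjb2 and Gjb6 correlated at r = 0.81, a description over samples that share mice and dissections. Both genes lay near the top of the measured range, with Gjb2 at the 99.32 to 99.83 percentile of its array. The stria vascularis markers summed to 50631 to 56439 in the 3 basal samples in which Gjb2 was highest, and to 20199 in control base replicate 1 and 21242 to 28152 in the apex. Fibrocyte markers, 10 of 10 above the filter, summed to 165778 and 142367 in cKO base and 124258 and 142210 in control base, against 140046 and 132435 in cKO apex and 121758 and 111187 in control apex. Both tissues make these connexins, and their part in the signals was not tested. In such bulk samples fewer cells of a type and less RNA per cell cannot be told apart.

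Without control base replicate 1, base minus apex over both genotypes was 0.43 ± 0.10 for Gjb2 and 0.29 ± 0.10 for Gjb6. Without control base replicate 2 it was 0.14 ± 0.10 for Gjb2 and 0.20 ± 0.10 for Gjb6. The size for Gjb2 thus depended on which of the 2 control basal samples was kept.

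**Figure D2:**
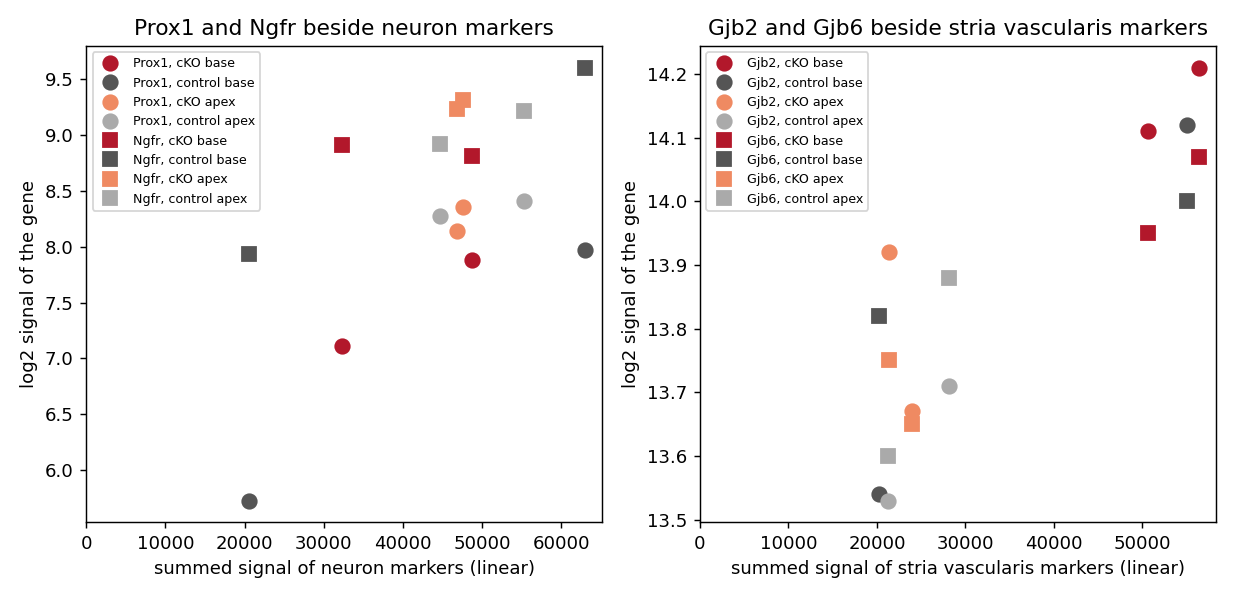
Left, log2 signal of Prox1 (circles) and Ngfr (squares) against the summed linear signal of 8 neuron markers on each array; right, Gjb2 (circles) and Gjb6 (squares) against 10 stria vascularis markers, coloured by group. Control base replicate 2 has the lowest neuron sum and the lowest Prox1 and Ngfr, and the 3 arrays with a stria sum of 50631 or more have the highest signals of Gjb2 and of Gjb6.

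Gja1 (Cx43), a connexin of connective tissue, glia and immature supporting cells, varied within groups more than between them. Its log2 signals were 12.19 and 11.63 in cKO base and 11.87 and 11.77 in control base. In the apex they were 12.09 and 10.51 in cKO samples, and 10.98 and 12.39 in controls. Replicates thus differed 2.98-fold in cKO apex and 2.67-fold in control apex, but 1.48-fold in cKO base and 1.07-fold in control base. The low samples were cKO apex replicate 2 and control apex replicate 1, 1 of each genotype.

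Of 6 Gja1 probe sets, 5 lay above the filter, and all 5 were lowest in cKO apex replicate 2 and next lowest in control apex replicate 1. The correlation between these 5 ran from 0.25 to 0.99 over the 8 arrays. Base minus apex over both genotypes was 0.37 ± 0.41 (log2, SE; adjusted p = 0.678, limma), with a 95% interval of 0.666 to 2.52-fold, so that neither a rise nor a fall of this size can be read.

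**Figure D3:**
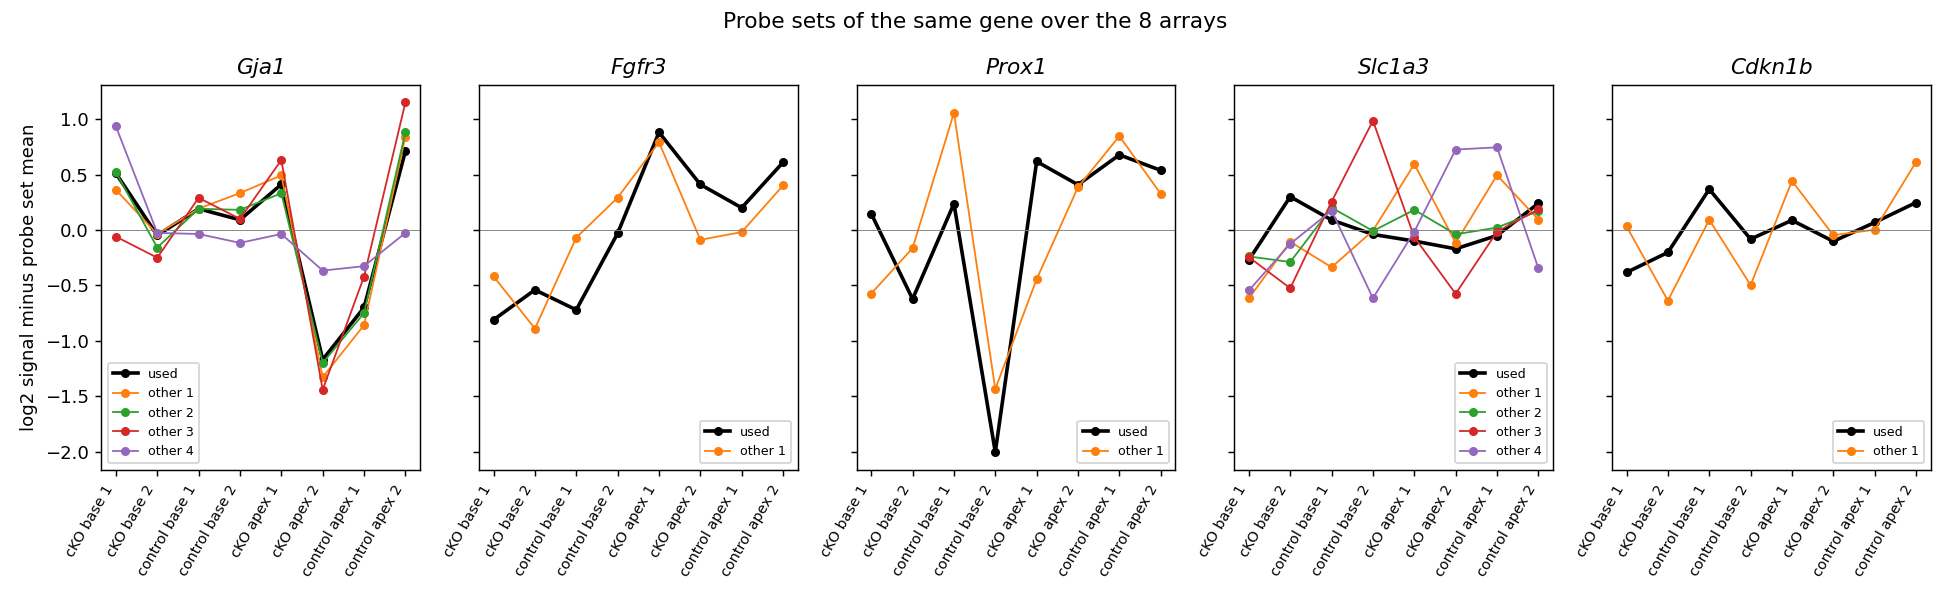
Log2 signal of each probe set above the filter, minus its own mean over the 8 arrays, for the 5 genes with more than 1 such probe set; the black line is the probe set used. The Gja1 probe sets dip together in cKO apex replicate 2 and control apex replicate 1, the Prox1 pair in control base replicate 2, and the 5 Slc1a3 probe sets do not follow one another.

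Among the receptors, Fgfr3 gave the clearest difference between regions. It encodes a fibroblast growth factor receptor of pillar and Deiters cells that sets pillar cell fate. Fgfr3 had log2 signals of 9.99 and 10.26 in cKO base and 10.08 and 10.77 in control base, against 11.68 and 11.21 in cKO apex and 11.00 and 11.41 in control apex. All 4 basal samples lay below all 4 apical ones, as they did for 6.4% of the genes tested.

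Base minus apex over both genotypes was -1.05 ± 0.20 (log2, SE), 2.07-fold lower in the base, with a 95% interval of -1.52 to -0.58. This missed the threshold of 0.05 in limma (adjusted p = 0.0611). The other 7 members had adjusted p of 0.251 to 0.927, so that 0 of 8 passed where 1.19% of all genes did. At an unadjusted p under 0.05 there were 3 members (Fgfr3, Gjb6 and Prox1), beside 17.2% of all genes. With the presumed mouse as a block, Fgfr3 alone of the 8 passed (adjusted p = 0.0388, 1.93% of genes passing), and as a random block likewise (adjusted p = 0.025, 3.99% of genes). Without control base replicate 1 Fgfr3 gave -0.88 (adjusted p = 0.0195, 11.5% of genes), and without control base replicate 2 -1.22 (adjusted p = 0.0174, 2.76% of genes). It did not pass without any 1 of the other 6 samples, with adjusted p up to 0.233. The base was lower in 4 of 4 presumed mice, by -1.70 and -0.95 in cKO mice and -0.92 and -0.65 in controls.

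Within genotypes the difference was -1.32 ± 0.28 in cKO (adjusted p = 0.148, limma) and -0.78 ± 0.28 in controls (adjusted p = 0.623). No member passed in either genotype, where 0.0832% of genes did in cKO and 0% in controls. Fgfr3 alone had an unadjusted p under 0.05 in each, beside 11.3% of genes in cKO and 7.52% in controls. Its basal samples lay below its apical ones in both genotypes, as for 25.6% of genes in cKO and 16.9% in controls. In the fit of the cKO samples alone Fgfr3 passed (adjusted p = 0.0174, 3.4% of genes). It also passed there without control base replicate 1 (adjusted p = 0.0255, 2.38% of genes) or replicate 2 (adjusted p = 0.0267, 2.39%). Without any 1 of the other 6 samples it did not, nor did any other gene tested, and its smallest difference was -1.08. The second Fgfr3 probe set gave -1.0 ± 0.42 in cKO, -0.08 ± 0.42 in controls and -0.54 ± 0.29 over both genotypes, and correlated with the first at 0.77. With the mean of both probe sets the control difference was -0.43.

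Prox1, a homeobox transcription factor of pillar and Deiters cells, was also lower in every basal sample than in every apical one, as 6.4% of genes were. Its log2 signals were 7.88 and 7.11 in cKO base and 7.97 and 5.73 in control base, against 8.35 and 8.14 in cKO apex and 8.41 and 8.27 in control apex. The apical samples lay between 8.14 and 8.41, while control base replicate 2 was 4.74-fold below replicate 1. Base minus apex over both genotypes was -1.12 ± 0.46 (adjusted p = 0.27, limma), lower in 4 of 4 presumed mice by -0.44 to -2.55. Without control base replicate 2 it was -0.56 ± 0.23, and without control base replicate 1 -1.68 ± 0.23. In controls alone it was -1.50 ± 0.65, and -2.62 ± 0.36 without control base replicate 1 (adjusted p = 0.0184, 4.17% of genes). That fit kept control base replicate 2 as the only control basal sample, at 5.73, near the filter of 5.274. It therefore rests on that low sample. Control base replicate 1, at 7.97, lay closer to the control apex mean of 8.34. Over all fits with samples left out, the control difference ran from -2.62 to -0.37. The second Prox1 probe set above the filter, at -0.56 ± 0.55, was likewise lowest in control base replicate 2, at 4.07. It was highest of all arrays in control base replicate 1, at 6.56, so that in this probe set base and apex overlapped.

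Ngfr (p75NTR), the low-affinity neurotrophin receptor, marks pillar cells and is also made by Schwann cells. It had log2 signals of 8.81 and 8.91 in cKO base and 9.60 and 7.93 in control base, against 9.31 and 9.23 in cKO apex and 9.21 and 8.92 in control apex. The 2 control basal samples were the highest and the lowest of all 8, 3.18-fold apart. Base minus apex over both genotypes was -0.36 ± 0.33 (adjusted p = 0.617, limma), lower in 3 of 4 presumed mice. Without control base replicate 1 it was -0.77 ± 0.15, and without control base replicate 2 the sign turned, at 0.06. Of its 3 probe sets, 1 lay above the filter.

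Prox1 and Ngfr had the highest positive correlation of any pair of members over the 8 arrays, at r = 0.85, a description only. Both were lowest in control base replicate 2, where the 8 neuron markers summed to 20561, against 63037 in control base replicate 1 and 32280 to 55314 elsewhere. The 5 myelin and Schwann cell markers with a probe set were also lowest there, with a sum of 44608, against 59081 in control base replicate 1. Hair cell markers summed to 11749 in that sample and to 15174 to 20556 in the others. Neurons, Schwann cells and hair cells lie beside the supporting cells, and their part in these values was not tested.

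**Figure D4:**
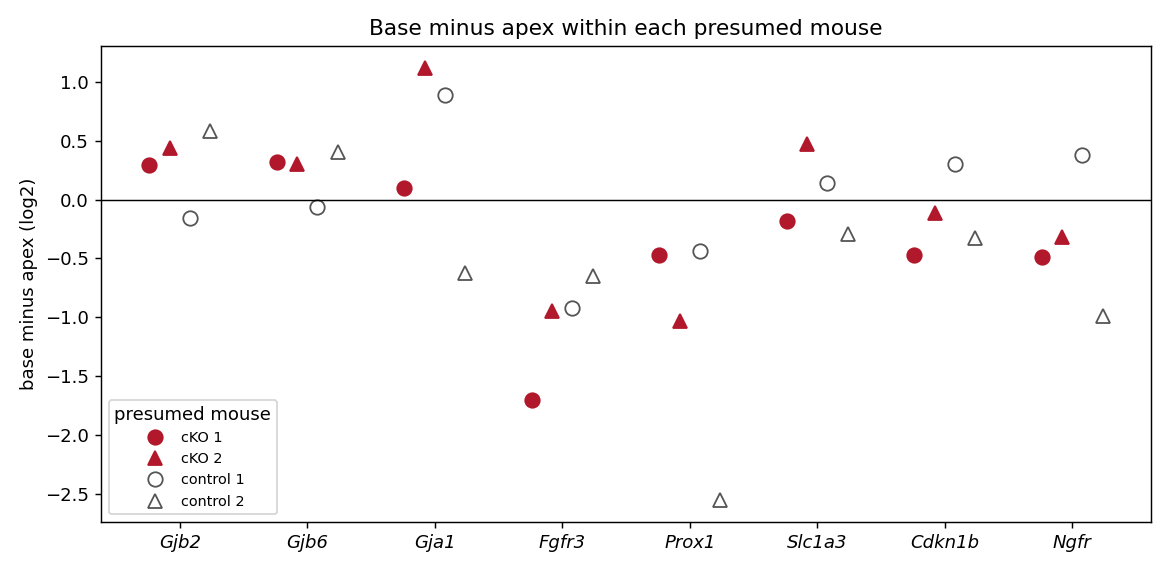
Base minus apex (log2) of each gene within each presumed mouse, with filled red symbols for cKO and open grey symbols for control. Fgfr3 and Prox1 lie below 0 in all 4 mice, and Gjb2 and Gjb6 lie above 0 in all but control mouse 1.

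Slc1a3 and Cdkn1b gave small differences between regions, within the spread of the samples. Slc1a3 (GLAST), the glutamate transporter of the cells beside the inner hair cells, had log2 signals of 9.39 and 9.96 in cKO base and 9.75 and 9.62 in control base, against 9.56 and 9.49 in cKO apex and 9.61 and 9.90 in control apex. Base minus apex was 0.04 ± 0.16 (adjusted p = 0.927, limma), with a 95% interval of 0.79 to 1.33-fold. Its 5 probe sets above the filter did not follow one another, with pairwise correlations of -0.47 to 0.47 and differences from -0.56 to 0.23, so that the value for Slc1a3 depends on the probe set read.

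Cdkn1b (p27Kip1), the cyclin-dependent kinase inhibitor that keeps supporting cells out of the cell cycle, had log2 signals of 10.00 and 10.18 in cKO base and 10.75 and 10.30 in control base. In the apex it had 10.47 and 10.28 in cKO samples, and 10.45 and 10.63 in controls. Base minus apex was -0.15 ± 0.14 (adjusted p = 0.617, limma). The second Cdkn1b probe set gave -0.50 ± 0.29.

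The second question was whether these genes differed between Dicer1 genotypes. In the base, cKO minus control was -0.43 ± 0.20 (log2, SE) for Cdkn1b, 1.35-fold lower, the largest of the 8 relative to its error. Its groups did not overlap, as was so in this direction for 15.6% of genes. The second Cdkn1b probe set gave -0.11 ± 0.41 in the base, and there the groups overlapped. Gjb2 gave 0.33 ± 0.19 and Gjb6 0.10 ± 0.13, Fgfr3 -0.30 ± 0.28 and Slc1a3 -0.01 ± 0.23. Slc1a3 again depended on the probe set, at -0.51 with the mean of its probe sets and -1.01 ± 0.34 for 1 of them (unadjusted p = 0.0187, adjusted p = 1, limma). Prox1 gave 0.65 ± 0.65, Gja1 0.09 ± 0.58 and Ngfr 0.10 ± 0.47. Read from the brightest probe set of each gene, none of the 8 passed in limma (adjusted p = 1 for each), none had an unadjusted p under 0.05 (3.12% of genes did), and 0% of all genes passed.

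In the apex, Slc1a3 gave -0.23 ± 0.23 and Ngfr 0.20 ± 0.47, each with groups that did not overlap, as was so for 16.2% of genes on the lower and 15% on the higher side. Gjb2 gave 0.18 ± 0.19, Gjb6 -0.04 ± 0.13, Gja1 -0.39 ± 0.58, Fgfr3 0.24 ± 0.28, Prox1 -0.10 ± 0.65 and Cdkn1b -0.16 ± 0.20. Again none passed (adjusted p = 1 for each, limma), where 0% of all genes did, and none had an unadjusted p under 0.05, where 2.19% did.

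Over both regions, where the base and apex of a mouse were averaged and 2 mice stood for each genotype, Cdkn1b gave -0.30 ± 0.13 and Gjb2 0.25 ± 0.12 (adjusted p = 0.999 for each, limma). For both, the cKO and control mice did not overlap, where 15.5% of genes were lower and 14.8% higher in this way. The second Cdkn1b probe set gave -0.11 ± 0.30. The other 6 members gave -0.15 to 0.27, none of the 8 passed, where 0% of all genes did, and none had an unadjusted p under 0.05, where 2.41% did. For the genotype effect in base minus that in apex, members ran from -0.54 ± 0.40 for Fgfr3 to 0.75 ± 0.92 for Prox1 (adjusted p = 1 for each, limma). None had an unadjusted p under 0.05, where 1.13% of genes did, and 0% passed.

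The width of the intervals sets what these comparisons can show. For Gjb6 in the apex, cKO over control had a 95% interval of 0.784 to 1.21-fold, and in the base of 0.863 to 1.33-fold. For Gja1 in the apex it ran from 0.298 to 1.96-fold and for Prox1 in the base from 0.548 to 4.48-fold. A doubling thus lay outside the interval of Gjb6 in both regions and inside that of Prox1. Gjb6 signals of 12390 to 17170 lay near the highest signal on each array, which was 22445 to 31863. A doubling from this level may not be measurable, so the interval of Gjb6 cannot exclude a doubling of its RNA. The median over the 8 members was 0.09 in the base and -0.07 in the apex, against 0 over all genes in each.

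**Figure D5:**
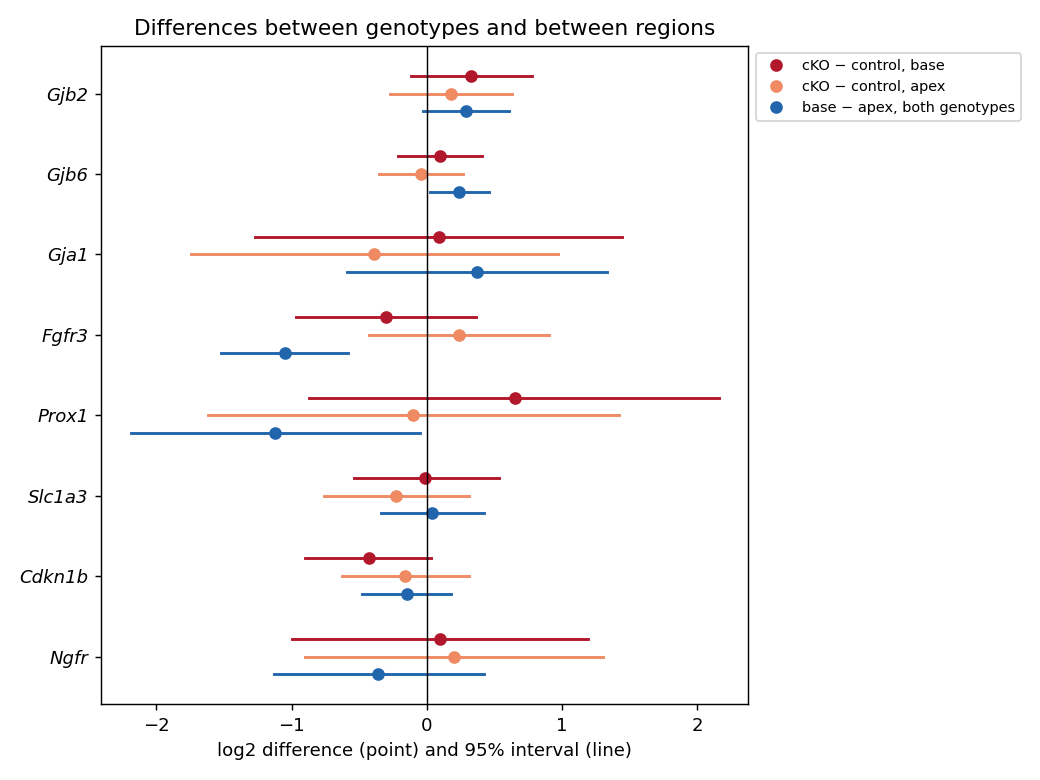
Log2 difference (point) with its 95% interval (line) for each gene, for cKO minus control in the base and in the apex and for base minus apex over both genotypes. The base minus apex intervals of Fgfr3, Prox1 and Gjb6 exclude 0 before adjustment, and every genotype interval spans 0.

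Other genes of the same roles were counted between regions. Of 30 other supporting cell genes, 27 were tested and 3 were lower in the base over both genotypes in limma, where 1.19% of all genes passed. These were Sox2, the factor that keeps sensory progenitors and supporting cells (-1.37 ± 0.16, adjusted p = 0.0197), the Notch ligand Jag1 (-1.19 ± 0.13, adjusted p = 0.0173) and Otog, which encodes the matrix protein otogelin (-1.40 ± 0.23, adjusted p = 0.045). Otog was also listed among the tectorial and limbus markers. None of the 27 passed as higher, and their median was -0.20 against -0.02 over all genes. For each of these 3 genes all 4 basal samples lay below all 4 apical ones, as for Fgfr3 and Prox1. The hair cell marker Myo7a was also lower in the base (-0.76 ± 0.22, adjusted p = 0.153, limma), with samples that overlapped. The 10 hair cell markers summed to 11749 to 19999 in the base and 16752 to 20556 in the apex. The part of the amount of sensory epithelium in these values was not tested. Sox2 ran from 9.30 to 9.97 in the basal samples and from 10.81 to 10.99 in the apical ones, and Jag1 from 8.57 to 9.36 in the base and 10.10 to 10.43 in the apex.

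Of 20 other connexins and pannexins 14 had a probe set of their own and 8 were tested. Panx3, a channel protein of bone and cartilage, was higher in the base (1.56 ± 0.27, adjusted p = 0.0491, limma), and no other passed. The bone markers with a probe set, 7 of 8, summed to 36165 and 34489 in cKO base and 24482 and 31387 in control base, against 19479 and 16518 in cKO apex and 14989 and 20333 in control apex. The part of bone tissue in the Panx3 value was not tested. The calls of Sox2, Jag1, Otog and Panx3 were each lost when any 1 apical or cKO sample was left out. Few of all genes passed in those fits. These calls were kept without either control basal sample, where more of all genes passed.

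No gene passed between regions among 13 tested of 19 FGF ligands, receptors and feedback targets, 16 of 18 genes of potassium uptake and cell junctions, 9 of 10 of glutamate uptake, 13 of 14 of the cell cycle brake and 8 of 12 neurotrophins and receptors. Their medians of base minus apex ran from -0.13 to 0.13. Fgf8, which signals from inner hair cells to Fgfr3, and Fgf20 lay under the filter. No gene of these 7 lists passed in limma in either region between genotypes.

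Among genes outside all lists, those most like each member over the 8 arrays were named by Pearson's r, as a description. Hunk (0.99) and Tenm2 (0.989) were most like Fgfr3, Camta1 (0.983) and Mreg (0.982) most like Prox1, and Mgat3 (0.984) and Htr7 (0.983) most like Ngfr. Nebl (0.988) was most like Gjb2, Plin4 (0.986) most like Gjb6, and Crispld1 and Fgl2 (0.969 each) most like Gja1. For Slc1a3 the highest was Wdr89 (0.95) and for Cdkn1b Cul2 (0.952). The 8 arrays come from 4 presumed mice and share dissections.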

How the data were processed

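Total RNA (75 to 125 ng) was amplified in a 2-cycle procedure and labelled with biotin, per the labels' protocols. The authors deposited MAS5 signals, a linear intensity for each probe set, and, from the values, had scaled each array to a trimmed mean of 500 (2% off each end). The submitters' processing notes name MAS5 and affy 1.26 without their roles. Detection calls were not used here.

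Of 45101 probe sets, 34945 had 1 gene in the supplied annotation, 932 several and 9160 none listed, and 64 were array controls. Of those with 1 gene, 34741 were matched by Entrez identifier to current RefSeq symbols. A gene was read from its probe set of highest mean log2 value. Probe sets under the 40th percentile (log2 of 5.274) were not tested, leaving 13221 genes. The log2 of the signal was taken, without a pseudocount or renormalization. limma 3.58.1 (R 4.3.3) was fitted over all genes to the 4 group means (4 residual degrees of freedom, 3.46 from the prior), with an intensity trend. For genotype over both regions the fit used averages of base and apex per animal (residual degrees of freedom 2, prior 3.1). All tests are two-sided, with p-values adjusted by Benjamini and Hochberg's method over all genes and a threshold of 0.05. Standard errors and 95% intervals come from the moderated fit. The number of arrays limits the precision.

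The design text ties a replicate to 1 mouse, so samples of the same genotype and number were presumed to share it. Deviations from group means correlated between base and apex at 0.0683 in cKO and 0.339 in control. Across genotypes the number is only shared (-0.0312 in the apex, 0.177 in the base). The rule for named genes took all 8 members, members of the other lists that passed, the summed signal of each marker list and its first gene, and for each member the 2 genes outside the lists with the highest Pearson r. The members and lists were chosen with earlier results of these data known. Tectb, Xist, Dicer1 and the FGF genes under the filter were added after their values were seen, as checks. The procedure was tested on simulated data. Alternatives covered the filter, a pseudocount of 16, normalization, the choice of probe set, the variance model, blocks and leaving out samples.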

Additional observations from a re-analysis of the deposited data

How the results depend on the processing

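No member tested passed in any comparison under the filters, the pseudocount, either normalization, the mean of probe sets, every probe set on its own or the untrended variance. Ngfr was not tested with the mean of probe sets. The number passing was 1 (Fgfr3) for base minus apex in cKO with the compared groups alone (3.4% of genes), and 1 (Fgfr3) over both genotypes with the presumed mouse as replicate block (1.93%) or as random block (3.99%). The shared replicate number as a block between genotypes changed no call. Directions turned with quantile normalization for Slc1a3 in the base (0.00) and Gjb6 over both regions (-0.08), both cKO minus control. Centring on the 75th percentile turned cKO minus control for Gjb6 in the apex (0.00), Slc1a3 in the base (0.03) and Fgfr3 over both regions (0.01), and base minus apex for Cdkn1b in controls (0.02). The mean of probe sets turned Slc1a3 for base minus apex in cKO (-0.12) and controls (0.17), and for the genotype effect in base minus that in apex (-0.29). The cause was not tested. Outside the members, Jag1 was lost with the mean of probe sets, at -0.63 (adjusted p = 0.205) against -1.19, Otog without the trend, and Panx3 without the filter, without the trend and with quantile normalization. Panx3 was not tested with the mean of probe sets.

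Leaving out 1 sample at a time moved the number of members passing between 0 and 1 for base minus apex in cKO, 0 and 2 in controls and 0 and 4 over both genotypes. In the fits without control base replicate 1 that gave the highest counts, 2.38%, 4.17% and 11.5% of genes passed in these 3 comparisons. The 2 in controls were Prox1 and Ngfr, and the 4 over both genotypes were Gjb2, Fgfr3, Prox1 and Ngfr, in each case without control base replicate 1. Leaving out both samples of control mouse 1, an alternative chosen after seeing the data, also gave 4 over both genotypes (7.93% of genes). A lone remaining sample was assumed to vary like the other groups. For the members whose direction turned when 1 sample or both of control mouse 1 were left out, the ranges over these fits follow. In the base, cKO minus control ran from -0.19 to 0.37 for Gja1, -0.65 to 0.04 for Fgfr3, -0.47 to 1.77 for Prox1, -0.30 to 0.28 for Slc1a3 and -0.74 to 0.93 for Ngfr. In the apex, cKO minus control ran from -0.18 to 0.10 for Gjb6, -1.18 to 0.40 for Gja1, -0.00 to 0.47 for Fgfr3 and -0.21 to 0.01 for Prox1. Over both regions, cKO minus control ran from -0.02 to 0.08 for Gjb6, -0.69 to 0.38 for Gja1, -0.31 to 0.24 for Fgfr3, -0.32 to 0.87 for Prox1, -0.24 to 0.01 for Slc1a3 and -0.34 to 0.64 for Ngfr. In cKO, base minus apex ran from -0.18 to 1.40 for Gja1 and -0.14 to 0.44 for Slc1a3. In controls, base minus apex ran from -0.08 to 0.58 for Gjb2, -0.62 to 0.85 for Gja1, -0.29 to 0.07 for Slc1a3, -0.33 to 0.21 for Cdkn1b and -1.14 to 0.53 for Ngfr. Over both genotypes, base minus apex ran from -0.02 to 0.77 for Gja1, -0.11 to 0.18 for Slc1a3 and -0.77 to 0.06 for Ngfr. The genotype effect in base minus that in apex ran from -0.22 to 0.44 for Gjb2, -0.10 to 0.28 for Gjb6, -0.32 to 1.26 for Gja1, -0.37 to 1.87 for Prox1, -0.07 to 0.51 for Slc1a3, -0.50 to 0.04 for Cdkn1b and -0.94 to 0.73 for Ngfr. With 2 samples a group, 1 sample can set the direction of a difference of this size.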
